A study of Mus musculus with 25 samples.

Results

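A list of 40 genes that mark astrocytes or carry out their functions was followed, and every accessible site assigned to them was read in all libraries of the series. A site, or peak, belonged to a gene when the nearest transcription start site (TSS) of any protein-coding gene was that of the listed gene and lay within 100 kb, with peaks within 3 kb counted as promoter peaks and the others as distal peaks. The start sites were those of all annotated protein-coding transcripts, so a distance runs to the nearest of them, which can lie inside the gene. Of the 40 genes 38 had a peak, against 14875 protein-coding genes in all, and together they held 151 of 45672 peaks, of which 47 were promoter peaks of 33 genes and 104 were distal peaks of 33 genes. Of the 47 promoter peaks 39 lay within 3 kb of the 5′ end of the annotated gene. The other 8, of Acsbg1, Aldh1l1, Aqp4, Gfap, Slc14a1, Sparc and Ttyh1, lay at a start site farther inside it. For Gfap and Aldh1l1 no annotated protein-coding transcript started at that 5′ end. Of the 47 promoter peaks 20 had their centre in an exon, 16 in an intron and 11 outside genes, and of the 104 distal peaks 62 were intergenic, 41 intronic and 1 exonic.

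The libraries came from primary astrocyte cultures of wild-type C57BL/6J mice, in which retroviruses delivered Neurog2, Hmgb2, both (Neurog2+Hmgb2) or a Control virus encoding GFP, and accessibility was measured by ATAC-seq, in which a transposase cuts open chromatin. Cultures were expanded for 10 days with 10 ng/ml EGF and 10 ng/ml bFGF (EGF+bFGF) or with 10 ng/ml bFGF alone, and fluorescent cells were sorted 48 h after transduction. All 8 groups thus carried a retrovirus with a fluorophore under the CAG promoter, and retroviruses of this kind enter dividing cells. In the study's vector list the Neurog2 virus carries dsRED and the Hmgb2 virus GFP, and the study combined the factors by adding both viruses. Libraries with and without Neurog2 thus differ also in dsRED and in the colour sorted. These cannot be told apart from Neurog2 itself. Each group held 3 libraries except EGF+bFGF Hmgb2, which held 4, so that 12 libraries carried Neurog2 and 13 did not, 13 carried Hmgb2 and 12 did not, and 12 came from bFGF and 13 from EGF+bFGF culture. The cortex was taken at postnatal days 5 to 6 per the sample labels and at days 6 to 8 per the series' design text, and the sample labels name grey matter where the study's methods describe white matter. Whether replicates are distinct animals or cultures is not given in the labels, so the p-values speak to library-to-library spread only, which may be technical.

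Astrocytes clear glutamate and potassium, hold water and ion balance, supply neurons with lipids and metabolites and shape the extracellular matrix, and the listed genes cover these tasks. Neurog2 is a proneural transcription factor of the basic helix-loop-helix family that binds short DNA words called E-boxes and drives neuronal fate, also when forced into glia. Hmgb2, of the high mobility group box family, is a chromatin protein that binds and bends DNA with little sequence preference. Accessible chromatin at a promoter or at a distal element is one layer of the control of such genes, and its level need not follow that of the RNA.

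Values are regularized logarithms (rlog) of read counts per peak on the log2 scale, so a difference of 1 would be 2-fold, and the transformation shrinks differences at peaks with few reads. Library medians lay between 4.56 and 4.67, and depth is unknown. Of all libraries, bFGF Neurog2 replicate 2 was least like its group (mean correlation 0.936). At the peak over Neurog2 itself, which reads of the viral insert also reach, libraries with Neurog2 lay between 10.6 and 16.1 and those without between 6.76 and 12.7, and 4 of the 13 without it exceeded 10 against their label. These 4 were EGF+bFGF Control replicates 1 and 2, EGF+bFGF Hmgb2 replicate 1 and bFGF Hmgb2 replicate 1, and results are also given without them. Leaving them out kept only replicate 3 of EGF+bFGF Control, so that group then had no replicates. The other Neurog2 peak did not separate them (3.81 to 4.81 with and 3.82 to 4.70 without). At 2 of the 3 peaks of Hmgb2, libraries with Hmgb2 lay above all those without it (6.15 to 11.0 against 3.99 to 5.66, and 6.81 to 11.5 against 4.17 to 6.15), and at the third peak the ranges overlapped (8.54 to 12.1 against 8.11 to 8.60).

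The sequences of 4 distal peaks are shown first, to set sites that lost accessibility with Neurog2 beside sites that gained it. They are the central 200 bases on the plus strand of GRCm38, the assembly also called mm10, from the peaks with the smallest adjusted p among those that fell (Hepacam, Aldh1l1) and among those that rose (Ttyh1, Slc1a3) with Neurog2. Matches on either strand to 4 words are in capitals: the E-box CAGATG, the E-box with the letters CAGCTG, the E-box with the letters CATATG, and the AP-1 word TGANTCA. No word contains another, but neighbouring matches can share letters.
Hepacam, chr9:37359285-37359484, fell: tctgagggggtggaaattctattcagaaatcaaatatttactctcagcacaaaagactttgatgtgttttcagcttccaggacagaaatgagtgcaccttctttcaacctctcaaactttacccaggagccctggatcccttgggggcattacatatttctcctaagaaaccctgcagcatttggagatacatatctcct
Aldh1l1, chr6:90509133-90509332, fell: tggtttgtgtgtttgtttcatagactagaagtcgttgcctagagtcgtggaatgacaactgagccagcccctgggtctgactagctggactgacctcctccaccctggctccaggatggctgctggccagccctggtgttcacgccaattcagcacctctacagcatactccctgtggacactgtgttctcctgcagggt
Ttyh1, chr7:4128972-4129171, rose: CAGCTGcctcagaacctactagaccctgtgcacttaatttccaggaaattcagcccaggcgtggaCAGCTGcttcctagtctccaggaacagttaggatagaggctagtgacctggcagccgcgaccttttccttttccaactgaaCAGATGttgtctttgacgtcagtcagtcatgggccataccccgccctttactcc
Slc1a3, chr15:8785627-8785826, rose: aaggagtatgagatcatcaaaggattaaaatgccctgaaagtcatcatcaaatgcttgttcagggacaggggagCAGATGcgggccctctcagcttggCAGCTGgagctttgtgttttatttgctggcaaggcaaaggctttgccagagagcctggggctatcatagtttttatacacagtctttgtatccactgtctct

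The windows of the Hepacam and Aldh1l1 peaks held none of the 4 words, the Ttyh1 window held 2 copies of CAGCTG and 1 of CAGATG, and the Slc1a3 window held 1 copy of each. Over all members, CAGATG stood in 6 of the 6 distal windows that rose with Neurog2 and in 2 of the 13 that fell. The same word stood in 23.6% of all 21657 distal windows of the series, in 54.5% of the 2994 that rose and in 11.2% of the 3005 that fell. CAGCTG stood in 4 of the 6 member windows that rose and 3 of the 13 that fell. Over the series it stood in 20.5% of all distal windows, 35.7% of those that rose and 11.1% of those that fell. CATATG stood in 0 of the 6 and 0 of the 13, and in 3.46% of all. The AP-1 word stood in 0 of the 6 that rose and 4 of the 13 that fell. Over the series it stood in 27.8% of all distal windows, 17.5% of those that rose and 35.2% of those that fell. A match describes the letters only.

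Neurog2 changed accessibility at 31 of the 151 peaks when the 4 groups with Neurog2 were compared with the 4 without (limma, adjusted p under 0.05 over all peaks). Over the whole series 538 of 15521 promoter peaks fell and 796 rose, and of 21657 distal peaks 3005 fell and 2994 rose. The total of 31 is therefore read below by place and direction. At promoters, 9 of 47 promoter peaks fell, a share of 19.1% where 3.47% of all promoter peaks fell, and 3 rose, a share of 6.38% where 5.13% of all rose. Counting only the 40 peaks nearest to and within 3 kb of the 5′ end of a listed gene, 7 fell, a share of 17.5% where 2.85% of all such peaks fell, and 3 rose, a share of 7.5% where 4.51% rose. The median difference of the 47 member promoter peaks was -0.094 against 0.036 over all promoter peaks. At distal peaks 13 of 104 fell, a share of 12.5% beside 13.9% of all distal peaks, and 6 rose, a share of 5.77% beside 13.8%. Their median difference was -0.062 against -0.043 over all distal peaks. No difference reached 1 on the log2 scale. At each of the 31 peaks the 4 separate differences, Neurog2 minus Control and Neurog2+Hmgb2 minus Hmgb2 in each culture, had the same sign, which the averaging in part sets.

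**Figure D1:**
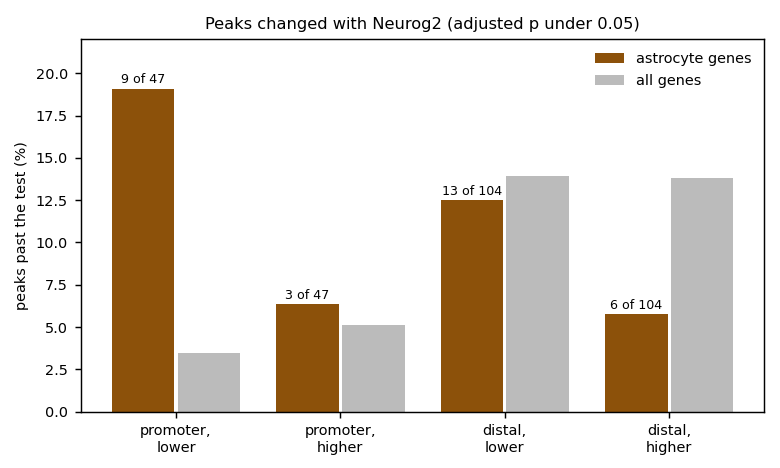
Share of peaks (%) past the test with Neurog2, by place and direction; brown bars are the astrocyte genes with their counts, grey bars all peaks of the same kind. At promoters 19.1% of the astrocyte peaks fell against 3.47% of all, and at distal sites 12.5% against 13.9%.

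When any 1 of the 25 libraries was left out, 23 of the 31 calls held in every fit and none changed direction. Without bFGF Neurog2 replicate 2, which stood apart, 7 promoter and 16 distal peaks fell and 3 promoter and 8 distal peaks rose. The count of rising promoter peaks was 5 without EGF+bFGF Hmgb2 replicate 4, bFGF Hmgb2 replicate 3 or bFGF Neurog2+Hmgb2 replicate 1. Without the 4 libraries with signal at Neurog2 against their label, 9 promoter peaks fell and 1 rose, and 9 distal peaks fell and 6 rose. Among the 12 bFGF libraries alone 1 promoter and 1 distal peak fell and 3 distal peaks rose, and among the 13 EGF+bFGF libraries alone 9 promoter and 11 distal peaks fell and 5 promoter and 6 distal peaks rose. The shares over all peaks in the refits of this paragraph are not given. Their counts thus do not show whether a change in calls is particular to these genes. A different comparison in the main fit, Neurog2 against Control without the Hmgb2 groups, passed at 1.02% of all promoter and distal peaks in bFGF culture. In EGF+bFGF culture it passed at 4.23%.

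Among the genes of transport, channels and junctions, 2 of 13 promoter peaks fell and none rose, and 6 of 36 distal peaks fell and 2 rose. Over all genes 3.47% of promoter peaks fell and 5.13% rose, and 13.9% of distal peaks fell and 13.8% rose. The counts of this role and of those that follow were not tested against these shares. The clearest loss among the transport genes lay near Hepacam, an adhesion protein that places the membrane protein Mlc1 at astrocyte junctions. The only distal peak of Hepacam, 7273 bp from the TSS between genes (chr9:37358691-37360078), measured 5.52, 6.14 and 6.57 (lowest, median, highest) with Neurog2 and 6.39, 6.74 and 6.99 without. In all, 9 of the 12 libraries with Neurog2 lay below all 13 others, and the difference was -0.61 ± 0.093 (SE, adjusted p = 1.28e-05). Its promoter peak differed by -0.041, which did not pass the test.

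Ttyh1, a membrane protein of the tweety family, moved in opposite directions at 2 peaks inside the gene. The first, counted as a promoter peak, lay over an alternative start site 3935 bp inside the gene (chr7:4123343-4125026) and measured 7.91, 7.91 and 7.94 in the 3 EGF+bFGF Control libraries, 7.61, 7.62 and 7.21 with Neurog2, 7.50, 7.49 and 6.99 with Neurog2+Hmgb2 and 8.01, 7.72, 7.73 and 7.72 with Hmgb2. In bFGF culture it measured 7.88, 7.52 and 7.90 with Control, 7.84, 6.81 and 7.36 with Neurog2, 7.08, 7.15 and 6.78 with Neurog2+Hmgb2 and 7.75, 7.44 and 7.92 with Hmgb2. Of the 12 libraries with Neurog2, 7 were lower than all others, and the highest, bFGF Neurog2 replicate 1, sat inside the Control range. The difference was -0.51 ± 0.095 (adjusted p = 0.000172).

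The peak over the 5′ end of the gene differed by 0.064 ± 0.10 and did not pass (adjusted p = 0.704), so that the Ttyh1 promoter peak below is the one at the alternative start. A second intronic peak of Ttyh1, 4271 bp from its nearest start site and 9352 bp inside the gene (chr7:4128760-4129382), which contains the window shown above, measured 4.25, 4.70 and 4.95 with Neurog2 and 3.73, 3.95 and 4.23 without. The groups did not overlap, every library with Neurog2 being above every library without it. The difference was 0.72 ± 0.086 (adjusted p = 2.86e-07). The other 2 promoter and 2 distal peaks of the gene did not pass the test.

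Slc1a3, the glutamate transporter GLAST, had 10 distal peaks, of which 1 rose and 2 fell. The rising peak, 74754 bp from the TSS and intergenic (chr15:8785518-8785934), measured 4.60, 4.87 and 5.14 with Neurog2 and 3.83, 4.25 and 4.48 without, again with no overlap (0.64 ± 0.080, adjusted p = 6.77e-07). A neighbour 70330 bp from the TSS (chr15:8781094-8781945) measured 4.23, 5.14 and 5.59 with Neurog2 and 4.97, 5.54 and 5.82 without and fell by 0.41 ± 0.11 (adjusted p = 0.00531). An intronic peak 49761 bp away (chr15:8659391-8660648) fell by 0.36 ± 0.099 (adjusted p = 0.00904), and the ranges of these falling peaks overlapped between libraries with and without Neurog2. The Slc1a3 promoter peak differed by -0.23 ± 0.090 (adjusted p = 0.0676), so it did not pass.

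**Figure D2:**
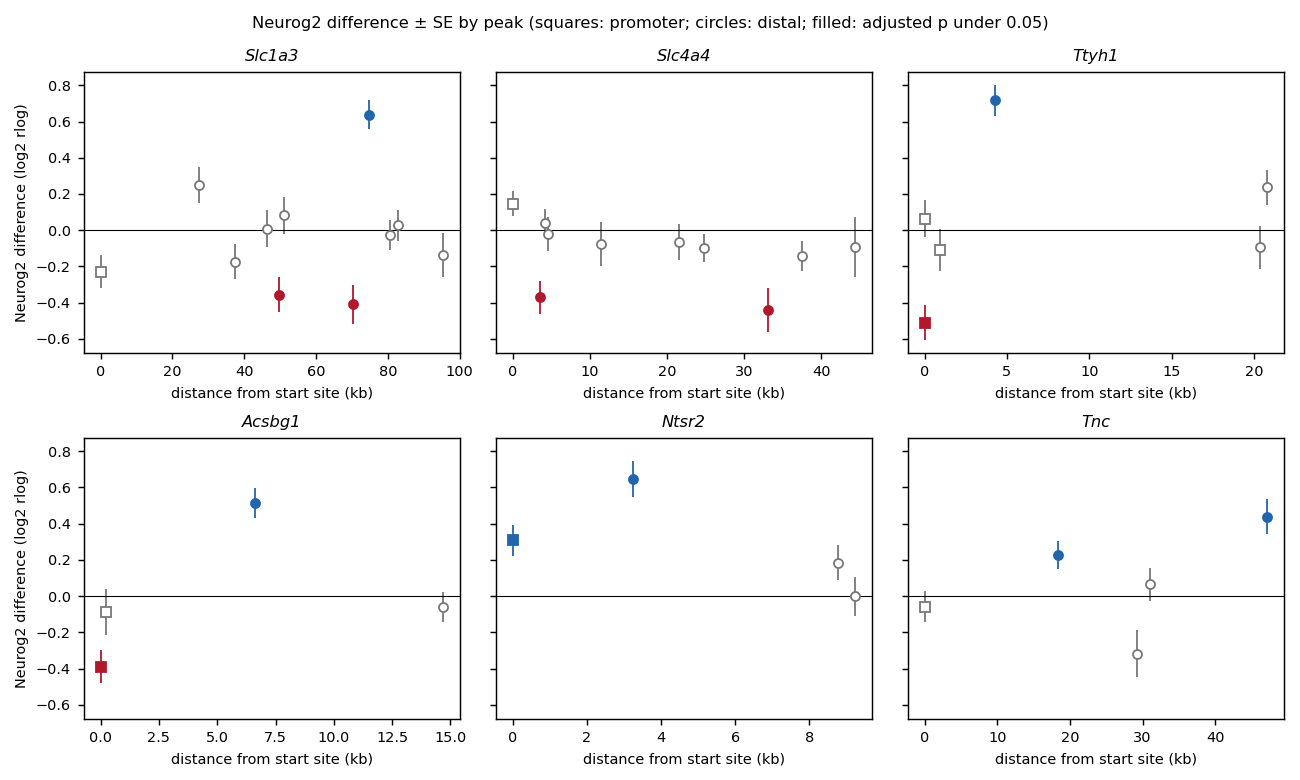
Difference with minus without Neurog2 (rlog, log2, ± SE) of every peak of 6 genes against its distance (kb) from the nearest annotated start site; squares are promoter and circles distal peaks, red fell and blue rose at an adjusted p under 0.05. Ttyh1 and Acsbg1 each fell at 1 promoter peak, that of Ttyh1 at an alternative start, and rose at a distal peak, while Slc1a3 held 2 falling peaks and 1 rising peak among its distal sites.

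Slc4a4, a sodium bicarbonate cotransporter, had 9 distal peaks, of which 2 intronic ones fell. The one 43804 bp inside the gene, 3537 bp from its nearest start site, fell by 0.37 ± 0.091 (adjusted p = 0.00328), and the one 107779 bp inside the gene, 33086 bp from another start site, fell by 0.44 ± 0.12 (adjusted p = 0.00837). At the first of these, 9 of the 12 libraries with Neurog2 lay below all others. Without the 4 libraries noted above the second differed by -0.42 (adjusted p = 0.0585), a lost call. The peak 67236 bp from Aqp4, the water channel, fell by 0.33 ± 0.12 (adjusted p = 0.0415), as did the promoter peak of Slc14a1, a urea transporter, at an alternative start 19254 bp inside the gene, by 0.28 ± 0.097 (adjusted p = 0.039). Both calls were fragile, being lost in 17 and in 15 of 25 fits when single libraries were dropped, and the Slc14a1 call was also lost without the 4 libraries noted above (-0.27, adjusted p = 0.119). The promoter of Slc1a2, the glutamate transporter GLT-1, was higher by 0.24 ± 0.093 but did not pass (adjusted p = 0.0569). The peaks of Mlc1, Gja1 (connexin 43) and Slc7a10 (a neutral amino acid transporter) did not pass either, and Gjb6 (connexin 30) had no peak of its own, the closest lying 75332 bp away and belonging to Gja3.

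Among the genes of metabolism and lipid handling, 3 of 11 promoter peaks fell and 1 rose, and 4 of 20 distal peaks fell and 1 rose. Acsbg1, an acyl-CoA synthetase, changed in opposite directions at its promoter and at a distal peak. The promoter peak at the TSS (chr9:54661677-54662161) measured 3.80, 4.32 and 4.54 with Neurog2 and 4.38, 4.70 and 4.99 without. All 12 libraries with Neurog2 lay below the median of the others, and the difference was -0.39 ± 0.091 (adjusted p = 0.00211). An intergenic peak 6616 bp from the TSS (chr9:54668486-54668872) measured 3.82, 4.31 and 4.69 with Neurog2 and 3.52, 3.84 and 4.07 without, with 11 of 12 libraries above all others (0.51 ± 0.084, adjusted p = 3.57e-05).

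Fabp7, the brain lipid binding protein of astrocytes and radial glia, fell at its promoter peak (chr10:57783922-57785235). In EGF+bFGF culture that peak measured 6.46, 6.67 and 6.75 with Control, 6.64, 6.50 and 6.44 with Neurog2, 6.22, 6.28 and 5.98 with Neurog2+Hmgb2 and 6.59, 6.33, 6.50 and 6.53 with Hmgb2. In bFGF culture it measured 6.53, 6.46 and 6.52 with Control, 6.18, 6.00 and 6.28 with Neurog2, 5.98, 5.87 and 6.05 with Neurog2+Hmgb2 and 6.18, 6.13 and 6.70 with Hmgb2. Neurog2 alone overlapped Control in EGF+bFGF culture and lay below it in bFGF culture, while Neurog2+Hmgb2 lay below Control and Hmgb2 in both. The averaged difference was -0.29 ± 0.071 (adjusted p = 0.00358), and the Neurog2 effect was not shown to differ between cultures (-0.15 ± 0.14, adjusted p = 0.906) or with Hmgb2 (-0.13 ± 0.14, adjusted p = 0.896).

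Aldh1l1, a folate enzyme widely used as an astrocyte marker, fell at 1 of 7 distal peaks, 22648 bp inside the gene and 41399 bp from its nearest start site (chr6:90509075-90509390, intronic). This peak measured 3.35, 3.84 and 4.18 with Neurog2 and 3.85, 4.26 and 4.60 without, and all 12 libraries with Neurog2 lay below the median of the others (-0.44 ± 0.093, adjusted p = 0.000833). The Aldh1l1 promoter peak, at a protein-coding start site 63814 bp inside the annotated gene, differed by -0.056 ± 0.11, which did not pass. The promoter of Ndrg2, a member of the NDRG family, fell by 0.38 ± 0.11 (adjusted p = 0.0133).

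An intronic peak of Plpp3, a lipid phosphate phosphatase, fell by 0.29 ± 0.096 (adjusted p = 0.0266), and so did distal peaks of Dbi, an acyl-CoA binding protein, by 0.30 ± 0.098 at 3464 bp (adjusted p = 0.0245) and by 0.23 ± 0.082 at 20278 bp (adjusted p = 0.0426). Both Dbi calls were lost without the 4 libraries noted above, with differences of -0.24 (adjusted p = 0.162) and -0.24 (adjusted p = 0.102). The promoter of Glul, glutamine synthetase, rose by 0.20 ± 0.066 (adjusted p = 0.0266), a call lost without those 4 libraries (0.19, adjusted p = 0.103). Its range was 6.72, 6.94 and 7.25 with Neurog2 and 6.35, 6.74 and 6.98 without. Apoe, the lipid carrier, did not pass at its promoter (-0.12 ± 0.087), and Aldoc had no peak of its own.

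Among the secreted and metal-binding proteins, 3 of 7 promoter peaks fell, none rose, and none of 4 distal peaks passed. Clu, or clusterin, fell at both of its promoter peaks: the one at chr14:65970495-65971264 measured 4.69, 5.08 and 5.35 with Neurog2 and 4.87, 5.37 and 5.69 without (-0.31 ± 0.083, adjusted p = 0.00682), and the one at chr14:65968306-65969102 fell by 0.28 ± 0.078 (adjusted p = 0.00947). At each of them all 12 libraries with Neurog2 lay below the median of the others. Of the 2 promoter peaks of Cst3, cystatin C, the one 2919 bp from the TSS fell by 0.37 ± 0.11 (adjusted p = 0.0121), while the one over the TSS differed by 0.041. The metallothionein genes Mt1, Mt2 and Mt3 did not pass, with promoter differences of -0.14, -0.21 and -0.095.

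The filament and calcium-binding genes Gfap, Nes and S100b had no peak that passed. For Gfap, the intermediate filament by which astrocytes are commonly stained, the 2 promoter peaks differed by 0.020 ± 0.085 and 0.038 ± 0.12, and the distal peak by -0.13 ± 0.079. This distal peak lay over the 5′ end of the annotated gene, 3524 bp from the nearest protein-coding start site. Of the Id genes, inhibitors of helix-loop-helix factors, a peak 7777 bp from Id3 fell by 0.32 ± 0.098 (adjusted p = 0.0171) and the Id3 promoter was lower by 0.22 ± 0.083 without passing (adjusted p = 0.051), and no peak of Id4 passed.

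Among the matrix genes 1 of 8 promoter peaks fell and 1 rose, and 1 of 19 distal peaks fell and 2 rose. A peak 647 bp from the TSS of Sparc, a matricellular glycoprotein (chr11:55423830-55424134), rose by 0.34 ± 0.091 (adjusted p = 0.00604). It measured 3.58, 3.43 and 3.92 with Control, 4.04, 4.17 and 4.19 with Neurog2, 4.39, 4.55 and 4.43 with Neurog2+Hmgb2 and 4.02, 3.72, 3.86 and 3.76 with Hmgb2 in EGF+bFGF. With bFGF alone it measured 4.02, 3.82 and 3.59 with Control, 3.83, 3.74 and 3.95 with Neurog2, 3.82, 4.47 and 3.80 with Neurog2+Hmgb2 and 3.75, 4.11 and 3.51 with Hmgb2. Every library with Neurog2 lay above every one without it in EGF+bFGF culture, while in bFGF culture the libraries overlapped except Neurog2+Hmgb2 replicate 2. The Neurog2 effect was not shown to differ between cultures (bFGF minus EGF+bFGF, -0.42 ± 0.18, adjusted p = 0.76). Without the 4 libraries noted above the call was lost (0.28, adjusted p = 0.0773), and the Sparc promoter peak with the highest mean, 2818 bp inside the gene, differed by -0.094.

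Distal peaks of Tnc, tenascin C, rose by 0.44 ± 0.098 at 47166 bp (adjusted p = 0.0014) and by 0.23 ± 0.079 at 18361 bp (adjusted p = 0.0366). An intronic peak of Ptn, the growth factor pleiotrophin, fell by 0.39 ± 0.099 (adjusted p = 0.00436), and a promoter peak of Sparcl1, the matrix protein hevin, by 0.29 ± 0.10 (adjusted p = 0.0433). The Sparcl1 call and that of the nearer Tnc peak were lost in 14 and in 15 of those 25 fits. Cspg5 and Bcan, proteoglycans of the brain, had no peak that passed among all peaks tested.

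Among the receptors and adhesion genes, 1 of 2 promoter peaks rose, and 1 of 14 distal peaks fell and 1 rose. Ntsr2, a neurotensin receptor, rose at 2 peaks. An intronic peak 3257 bp from its TSS (chr12:16657015-16657754) measured 4.61, 5.20 and 5.59 with Neurog2 and 4.15, 4.53 and 4.81 without, and 10 of 12 libraries lay above all others (0.65 ± 0.099, adjusted p = 1.37e-05). The Ntsr2 promoter peak rose by 0.31 ± 0.086 (adjusted p = 0.00902). A peak 16361 bp from Gpr37l1, a G protein-coupled receptor, fell by 0.31 ± 0.092 (adjusted p = 0.0151), a call lost without the 4 libraries noted above (-0.28, adjusted p = 0.114). Ptprz1, a receptor tyrosine phosphatase, was higher at its promoter by 0.24 ± 0.088 without passing (adjusted p = 0.0524), and no peak of Vcam1 passed.

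**Figure D3:**
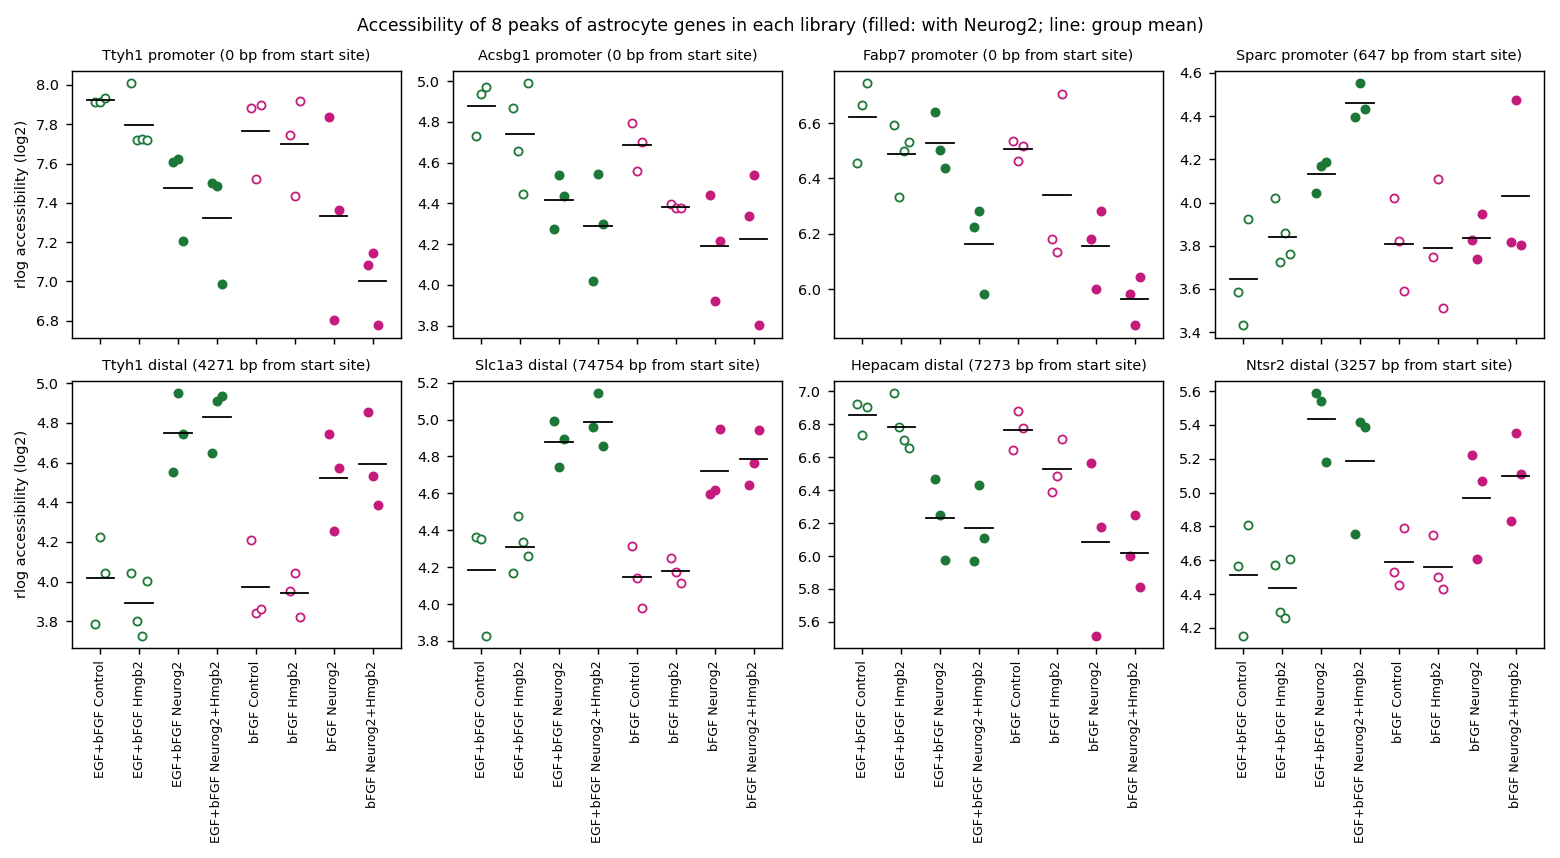
Accessibility (rlog, log2 scale) of 8 peaks in each of the 25 libraries; green is EGF+bFGF and magenta bFGF culture, filled points carry Neurog2 and lines are group means. The Ttyh1 and Slc1a3 distal peaks show no overlap between libraries with and without Neurog2, whereas the Sparc libraries with Neurog2 lie above the others in EGF+bFGF culture and overlap with them in bFGF culture, a difference between cultures that did not pass the test.

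With 1 value per gene, the counts depended on how that value was formed. At the promoter peak with the highest mean, 6 of 33 genes fell (Ttyh1, Acsbg1, Fabp7, Ndrg2, Clu and Slc14a1) where 2.27% of all 12268 genes fell, and 2 rose (Ntsr2 and Glul) where 4.34% rose. The Ttyh1 and Slc14a1 peaks among these lay at alternative starts, and the Slc14a1 and Glul peaks did not pass in the test over all peaks without the 4 libraries noted above. The difference was below 0 for 24 of the 33, beside 33.8% of all genes, and the median was -0.094 against 0.044. With the mean of all promoter peaks of a gene in its place, 2 fell and 1 rose. The count that rose was 1 without EGF+bFGF Neurog2 replicate 1 or bFGF Hmgb2 replicate 1, 4 without EGF+bFGF Hmgb2 replicate 4, bFGF Hmgb2 replicate 3 or bFGF Neurog2+Hmgb2 replicate 1, and 1 without the 4 libraries noted above. Averaged over all distal peaks of a gene, 7 of 33 genes fell (Hepacam, Dbi, Gpr37l1, Slc4a4, Id3, Glul and Cspg5), beside 13.9% of 8864 genes, and 3 rose (Ttyh1, Acsbg1 and Ntsr2), beside 13.2%. The value of Cspg5 is that of its only distal peak, which did not pass over all peaks (limma, adjusted p = 0.0535). No distal peak of Glul passed there (adjusted p = 0.245 and 0.106). Without the 4 libraries noted above, 3 genes fell and 2 rose at the distal mean. Glul rose at its promoter and fell over its distal peaks (-0.18 ± 0.061, adjusted p = 0.0289), and Ttyh1 and Acsbg1 did the reverse.

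**Figure D4:**
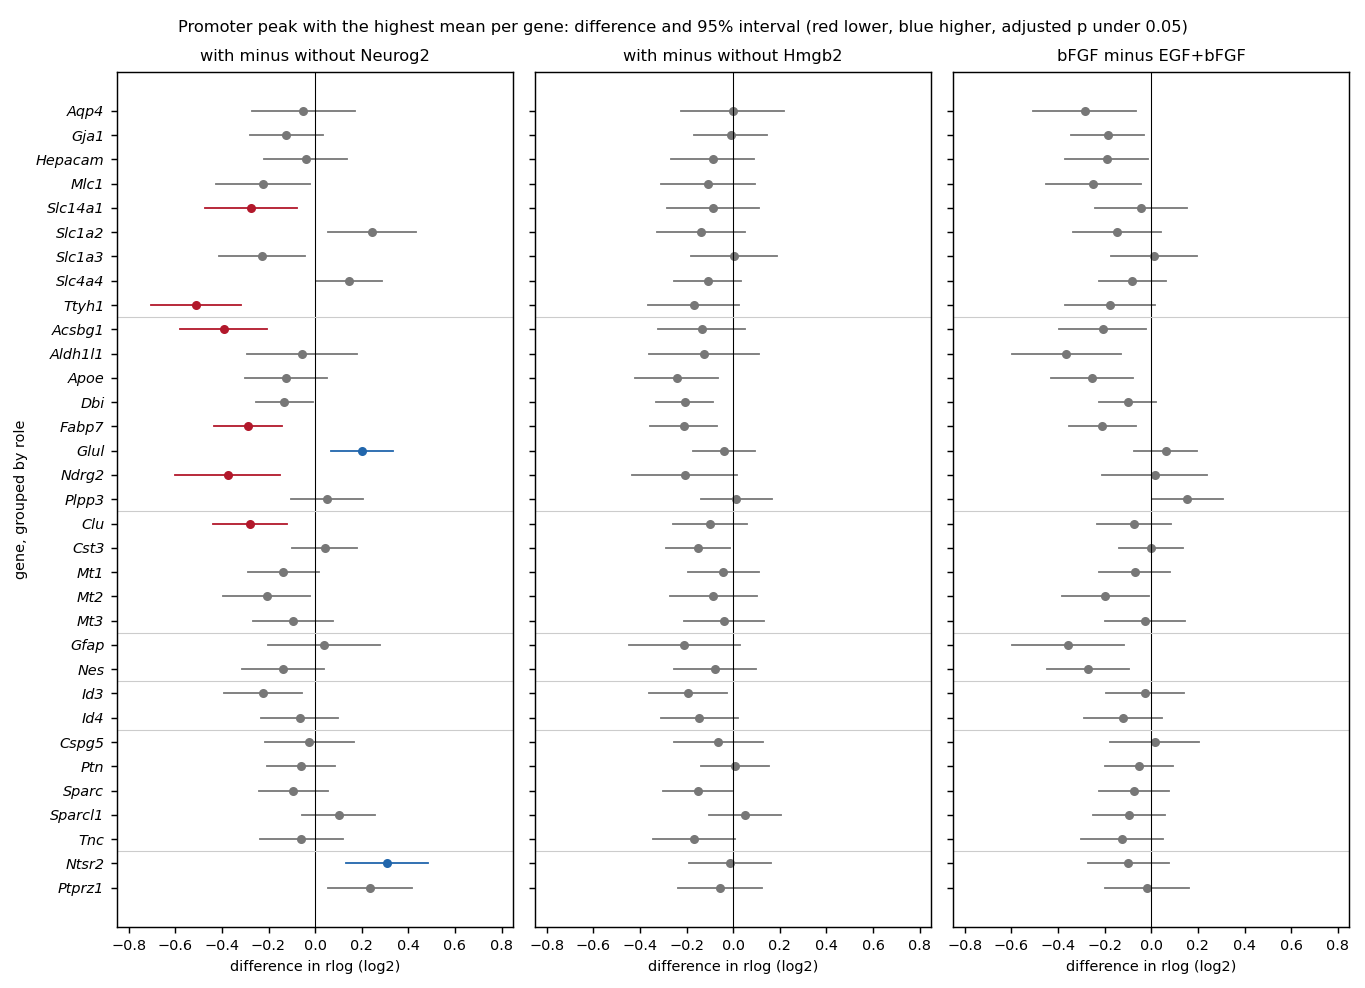
Difference (rlog, log2) with 95% interval at the promoter peak with the highest mean of each of 33 genes, grouped by role, for Neurog2, Hmgb2 and culture (bFGF minus EGF+bFGF); red fell and blue rose at an adjusted p under 0.05. Coloured genes appear for Neurog2 only, 6 lower and 2 higher, while the Hmgb2 and culture differences lie mostly below 0 without passing.

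Within single settings fewer peaks passed. Against Control, 4 of 151 peaks passed with Neurog2 in EGF+bFGF culture (4.23% of all promoter and distal peaks did), namely the rising distal peaks of Ntsr2 (0.93 ± 0.20), Ttyh1 (0.73 ± 0.17) and Slc1a3 (0.69 ± 0.16) and the falling one of Hepacam (-0.62 ± 0.19, adjusted p = 0.0493). With Neurog2+Hmgb2 in EGF+bFGF culture 11 passed (4.27% of all), 7 lower and 4 higher. In bFGF culture none passed with Neurog2 (1.02% of all, limma, with 19 lower and 6 higher at an unadjusted p under 0.05), and 6 passed with Neurog2+Hmgb2 (2.46% of all).

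The 11 peaks of Neurog2+Hmgb2 in EGF+bFGF culture included the Apoe promoter, which was not called in the averaged comparison (-0.63 ± 0.18, adjusted p = 0.0319). The largest of the other losses there were at Ndrg2 (-0.79 ± 0.22), the Aldh1l1 distal peak (-0.78 ± 0.19), Clu (-0.72 ± 0.17), Plpp3 (-0.71 ± 0.19), the Id3 distal peak (-0.69 ± 0.20) and Hepacam (-0.69 ± 0.19). In bFGF culture the 6 were the Ttyh1 promoter (-0.77 ± 0.19), Fabp7 (-0.54 ± 0.14) and Hepacam (-0.75 ± 0.19), which fell, and the distal peaks of Acsbg1 (0.81 ± 0.17), Slc1a3 (0.64 ± 0.16) and Ttyh1 (0.62 ± 0.17), which rose. These comparisons share their Control libraries.

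The counts within settings moved with single libraries. For Neurog2 in EGF+bFGF culture the count was 2 without any 1 of the 3 Control libraries or without Neurog2 replicate 1 or 2. For Neurog2+Hmgb2 in EGF+bFGF culture leaving out Control replicate 1 gave 5, Control replicate 2 gave 7 and Neurog2+Hmgb2 replicate 3 gave 4, and in bFGF culture it was 1 without Control replicate 3 or Neurog2+Hmgb2 replicate 3, 2 without Control replicate 2 and 3 without Neurog2+Hmgb2 replicate 1 or 2. For Neurog2 in bFGF culture it was 2 without Neurog2 replicate 1. Without the 4 libraries with signal at Neurog2 against their label, EGF+bFGF Control kept only replicate 3, so no counts are given for that culture. The bFGF groups compared here kept all their libraries, and their counts were 0 with Neurog2 and 5 with Neurog2+Hmgb2.

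The difference between settings was tested as such. The Neurog2 effect did not differ between cultures at any of the 151 peaks (limma, 0 called, 0% of all peaks, with 8 lower and 4 higher at an unadjusted p under 0.05), nor with against without Hmgb2 (0 called, 0% of all, 6 lower and 2 higher unadjusted). Hmgb2 added to Neurog2 changed no member peak past the test in EGF+bFGF culture (0.0188% of all, 8 lower and 4 higher unadjusted) or in bFGF culture (0% of all, 6 lower and 3 higher unadjusted). A p that misses the threshold does not show equal effects: for the Ttyh1 promoter, Neurog2+Hmgb2 was lower than Neurog2 by 0.33 ± 0.19 in bFGF culture (adjusted p = 0.761).

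Hmgb2 itself changed none of the 151 peaks when the 4 groups with it were compared with the 4 without (limma, 0.0323% of all peaks called, with 14 member peaks lower and 3 higher at an unadjusted p under 0.05). Against Control, Hmgb2 alone changed none in EGF+bFGF culture (0.00269% of all, 8 lower and 4 higher unadjusted) or in bFGF culture (0.00269% of all, 4 lower and 0 higher unadjusted). The promoter differences nevertheless lay mostly below 0, for 29 of 33 genes, as they did for 73.7% of all genes, with a median of -0.099 against -0.063.

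The smallest p values with Hmgb2 belonged to Clu (-0.29 ± 0.083, adjusted p = 0.274), Dbi (-0.21 ± 0.060, adjusted p = 0.285) and Fabp7 (-0.21 ± 0.071, adjusted p = 0.34) among the promoter peaks. The Dbi promoter measured 6.83, 7.13 and 7.40 with Hmgb2 and 7.11, 7.32 and 7.53 without, and the ranges overlapped over most of their length. The Hmgb2 effect did not differ between cultures at any member peak (limma, 0 called, 0% of all, 1 lower and 5 higher unadjusted).

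Culture with bFGF alone gave lower promoter values than EGF+bFGF for 28 of 33 genes, where 46% of all genes were lower, and a median of -0.098 against 0.0084, but no single member peak passed over all 4 viruses (limma, 0.438% of all peaks called, 27 member peaks lower and 8 higher at an unadjusted p under 0.05). Comparing only the Control groups, none passed (0% of all, 6 lower and 1 higher unadjusted). The Aldh1l1 promoter peak was lower by 0.36 ± 0.11 (adjusted p = 0.0915), the Gfap promoter peaks by 0.29 ± 0.085 and 0.36 ± 0.12 (adjusted p = 0.0727 and 0.101), Nes, a filament of progenitors, by 0.27 ± 0.086 (adjusted p = 0.0931), Apoe by 0.26 ± 0.087 (adjusted p = 0.111) and the Aqp4 promoter by 0.28 ± 0.11 (adjusted p = 0.152). The promoters of Slc1a3, Glul and Ndrg2 differed by 0.013, 0.061 and 0.015, and the S100b distal peak by 0.21 (adjusted p = 0.302).

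The Aldh1l1 promoter measured 5.18, 5.51 and 6.11 (lowest, median, highest) in bFGF and 5.38, 5.89 and 6.36 in EGF+bFGF culture. The Gfap peak over a protein-coding start site 3311 bp inside the annotated gene measured 4.99, 5.31 and 5.66 in bFGF and 5.16, 5.56 and 6.05 in EGF+bFGF culture. In both cases the medians differed and the ranges largely overlapped. Single libraries decided the culture call: without bFGF Neurog2 replicate 1, 12 member peaks of 151 passed where 6.05% of all promoter and distal peaks did, among them both Gfap promoter peaks (-0.32 ± 0.087 and -0.40 ± 0.12, adjusted p = 0.0298 and 0.0416) and the Aldh1l1 promoter (-0.43 ± 0.11, adjusted p = 0.0202), with 8 lower and 4 higher in all. Without bFGF Control replicate 1 or bFGF Hmgb2 replicate 3 the count was 4, without bFGF Neurog2+Hmgb2 replicate 2 it was 3, and without EGF+bFGF Hmgb2 replicate 2 it was 2.

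Set side by side gene by gene, the promoters of Ttyh1, Acsbg1 and Ndrg2 had smaller differences with the other factors than with Neurog2. They were picked for their loss with Neurog2, which in part sets this order. Ttyh1 differed by -0.51 with Neurog2, -0.17 with Hmgb2 and -0.18 with bFGF culture, Acsbg1 by -0.39, -0.13 and -0.21, and Ndrg2 by -0.38, -0.21 and 0.015. Fabp7 was lower by a like amount in all 3, -0.29, -0.21 and -0.21. The Clu promoter peak at chr14:65970495-65971264 differed by a like amount with Neurog2 and Hmgb2, -0.31 and -0.29. The Clu promoter peak at chr14:65968306-65969102 differed by -0.28 and -0.098. Gfap and Aldh1l1 had their largest promoter difference with culture, at -0.36 and -0.36, beside 0.038 and -0.056 with Neurog2 and -0.21 and -0.13 with Hmgb2.

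Tested directly, the Neurog2 difference minus the Hmgb2 difference passed at 10 member peaks (14% of all peaks did), 4 lower and 6 higher. It passed at the distal peaks of Ttyh1 (0.72 ± 0.12), Ntsr2 (0.70 ± 0.14), Slc1a3 (0.55 ± 0.11), Acsbg1 (0.43 ± 0.12) and Tnc (0.45 ± 0.14), which were higher, and of Hepacam (-0.50 ± 0.13), Slc4a4 (-0.49 ± 0.13), Aldh1l1 (-0.42 ± 0.13) and Aqp4 (-0.51 ± 0.16), which were lower, and at 1 promoter, Slc1a2 (0.38 ± 0.13, adjusted p = 0.0416). No promoter was lower with Neurog2 than with Hmgb2 past the test, that of Cst3 at 2919 bp coming nearest (-0.42, adjusted p = 0.0503) and the Ttyh1 promoter following at -0.34 ± 0.13 (adjusted p = 0.0757).

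The Neurog2 difference minus the culture difference passed at 16 member peaks (13.7% of all), 6 lower and 10 higher, and none of the 6 lower was a promoter. The Ttyh1 promoter differed by -0.33 ± 0.14 (adjusted p = 0.097), and the Gfap peak over the start site 3311 bp inside the gene by 0.31 ± 0.12 (adjusted p = 0.081). The Tnc peak 29257 bp from the TSS differed in this contrast by -0.83 ± 0.19 (adjusted p = 0.00271), and its culture difference alone was 0.51 ± 0.13 (adjusted p = 0.0543). At no single promoter was the loss with Neurog2 shown to be larger than the difference with either other factor.

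**Figure D5:**
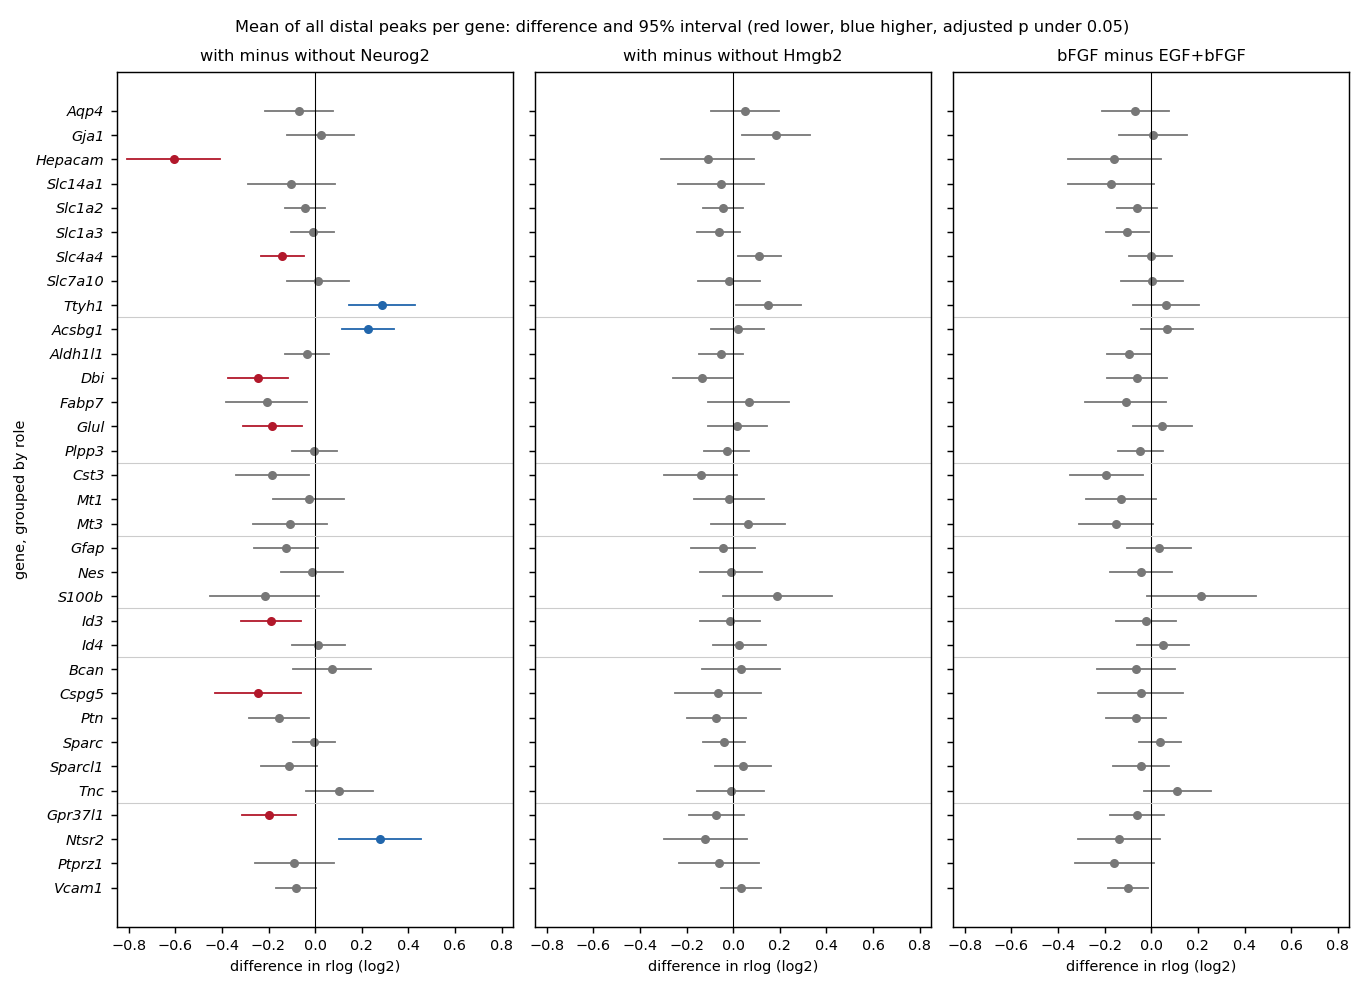
Difference (rlog, log2) with 95% interval of the mean of all distal peaks of each of 33 genes, grouped by role, for Neurog2, Hmgb2 and culture; red fell and blue rose at an adjusted p under 0.05. With Neurog2 7 genes fell, Hepacam by the most (-0.61), and 3 rose, whereas no gene passed with Hmgb2 or culture.

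A second list held 36 astrocyte genes outside the members. Of 31 promoter peaks of 24 of these genes 4 fell and 4 rose with Neurog2, with a median of 0.030. Over all promoter peaks 3.47% fell and 5.13% rose. Of 63 distal peaks 11 fell and 8 rose, where 13.9% of all distal peaks fell and 13.8% rose. Among 14 promoter peaks of 6 early neuronal genes 6 rose and 1 fell, beside the same promoter shares. The mean promoter level of the members lay between 5.22 and 5.58 in libraries with Neurog2 and between 5.40 and 5.72 in those without, so the ranges overlapped.

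Other cell types that the sort could hold were read by their markers. Promoter peaks were found for 2 of 10 microglial, 5 of 10 oligodendrocyte lineage, 3 of 8 endothelial, 6 of 10 fibroblast, meningeal and mural, 3 of 5 ependymal and 5 of 5 proliferation markers. The defining microglial genes Aif1, Cx3cr1 and P2ry12 and the oligodendrocyte genes Sox10 and Mog had none. With Neurog2 the mean promoter level ran from 4.30 to 4.70 for the oligodendrocyte list (4.25 to 4.58 without), from 3.91 to 4.66 for the microglial list (3.87 to 4.23 without), from 4.58 to 5.08 for the endothelial list (4.66 to 5.22 without) and from 4.13 to 4.69 for the fibroblast list (4.24 to 4.66 without). For the ependymal list it ran from 5.18 to 5.60 (5.34 to 5.66 without), and for the proliferation list from 5.96 to 6.39 (5.95 to 6.37 without). Among them 1 fibroblast and 1 ependymal promoter peak fell, where 3.47% of all promoter peaks fell, and no other marker promoter of these lists passed. All these ranges overlapped, and their part in the results was not tested. A smaller share of cells with an open site and less opening per cell cannot be told apart in such pooled cells.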

How the data were processed

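ATAC-seq libraries were made from sorted astrocytes of 8 groups, 25 libraries in all. Per the sources, the authors trimmed reads with cutadapt, aligned them to mm10 with Bowtie2, called peaks with Genrich and transformed counts over merged peaks with DESeq2 (version 1.36.0). The deposited values used here are these log2 values (rlog), 45672 peaks in 25 columns. Counts were not used, so depth is unknown and no counting interval is given. The rlog transformation shrinks noisy low peaks, so differences are understated there.

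Peaks were assigned to the nearest protein-coding TSS of GENCODE vM21 (GRCm38) within 100 kb. limma 3.58.1 (R 4.3.3) was fitted with 8 group means over all peaks, with an empirical Bayes mean trend and Benjamini-Hochberg adjustment over all peaks, at 0.05. Effects are averages over the 4 matched group differences, given ± SE. All tests were two-sided. By rule, up to 4 promoter and 4 distal peaks with the smallest adjusted p, 1 per gene, are given by group, the 4 with sequence being distal, and other members by difference or count; named peaks past these were chosen after their values were seen. The members and lists were chosen with earlier results of these data known. The fit was tested on simulated data. Sequences came from the GRCm38 genome.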

Additional observations from a re-analysis of the deposited data

Results flagged for a closer look

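At the Ttyh1 promoter peak, EGF+bFGF Hmgb2 replicate 1 measured 8.01 (rlog), apart from the other 3 libraries of its group, at 7.72, 7.73 and 7.72. About 1 in 20 groups is set apart in this way by chance. The library was also among the 4 with signal at Neurog2 against their label. Without this library the Ttyh1 promoter remained lower with Neurog2.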

How the results depend on the processing

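All 31 called peaks kept their direction under every alternative in which they were fitted. Leaving out 1 library at a time gave 7 to 12 falling and 2 to 5 rising promoter peaks, 10 to 16 falling and 5 to 8 rising distal peaks, 5 to 9 genes lower and 1 to 4 higher at promoters, 5 to 9 lower and 3 higher at distal sites, 0 to 12 peaks for culture, 2 to 5 and 4 to 16 for Neurog2 and Neurog2+Hmgb2 in EGF+bFGF, and 0 to 2 and 1 to 8 in bFGF culture. Rising promoter peaks numbered 5, and genes 4, with the replicate block and with quantile normalization, and 5 in EGF+bFGF libraries alone. The deviations of same-numbered libraries had a mean r of 0.0478 over 84 pairs (-0.474 to 0.465), beside -0.0214 over 189 other pairs. This check cannot show that same-numbered libraries share no preparation, and the main fit left the numbers out. The replicate block lost 2 of the 31 calls. Culture called 3 peaks after centring on medians and 1 with robust empirical Bayes. Requiring a difference over 1 left 0 promoter and 0 distal peaks, and 0 in each virus comparison. Fitting only the 2 groups gave 19 for Neurog2+Hmgb2 in EGF+bFGF, and scaling columns to the same SD gave 1 for Neurog2 in bFGF. The highest distal peak per gene gave 4 lower and 1 higher, the mean of promoter peaks 2 and 1. The bFGF libraries alone gave 1 falling and 0 rising promoter peaks and 1 falling and 3 rising distal peaks. The share over all peaks in this fit is not given. The fit without the 4 libraries over 10 at Neurog2 kept only replicate 3 of EGF+bFGF Control. Its results are given above, without counts for the virus comparisons in EGF+bFGF culture. This alternative, those in single cultures and the SD scaling were chosen after seeing the data. The cause of these shifts was not tested.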
